A study of Homo sapiens with 6 samples.

Results

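Cytosolic RNA and DNA sensing is carried by a small set of proteins, and 10 of their genes were followed here after TRIM28 was silenced in T24, a human urothelial carcinoma cell line. The 10 genes are RIGI, IFIH1, DHX58, TLR3, CGAS, MAVS, STING1, TBK1, IRF3 and IRF7. They were chosen by name for their function, with earlier results of these data known. All 10 were found among the 78932 genes of the count table. RNA-seq of poly(A) RNA was made from 3 cultures transfected with a control siRNA (siNC) and 3 transfected with siRNA against TRIM28 (siTRIM28), all of the same line in 1 batch. A small interfering RNA (siRNA) lowers the transcript that it matches. Which TRIM28 siRNA the cultures received, and for how long, was not given in the sources used here. The labels call the cultures biological replicates, and the p-values below measure the spread among them within this one line.

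RIGI and IFIH1 (also called MDA5) are helicases that bind viral or self RNA in the cytosol, and both hand the signal to MAVS on the mitochondrial surface. DHX58 (also called LGP2) is their relative without signalling domains, and TLR3 binds RNA in endosomes, where it signals without MAVS. CGAS binds DNA and makes a cyclic dinucleotide that activates STING1 on the endoplasmic reticulum. Both routes meet at the kinase TBK1, which phosphorylates the transcription factors IRF3 and IRF7, and these switch on type I and type III interferon genes. RIGI, IFIH1, DHX58, TLR3 and IRF7 are themselves known to be induced by interferon, while MAVS, TBK1 and IRF3 are made steadily in most cells. TRIM28 (also called KAP1) is a corepressor of chromatin known for the silencing of endogenous retroviruses.

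RIGI rose strongly in siTRIM28 cultures, IFIH1 rose moderately, and MAVS, TBK1 and CGAS rose by small amounts. IRF3 and STING1 did not pass the test, and DHX58, TLR3 and IRF7 had too few counts to enter it. Of the 7 genes tested, 5 were called higher at an adjusted p under 0.05, beside 21.3% of all 18474 genes tested, and 0 were called lower, beside 20.5%. In edgeR, DESeq2 and limma-voom alike, 0 of the 7 were lower even at an unadjusted p under 0.05. The median log2 fold change of the 7 was 0.30 and that of all genes tested was 0.02. Only RIGI also passed a log2 fold change of 0.58, as 9.51% of all genes did. Each of the 7 had 10 or more counts in all 6 libraries. They are the members that had enough reads to test, so these counts do not describe all 10. The 10 were chosen with earlier results of these data known, so the shares beside them are a description only.

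TRIM28 was low in every siTRIM28 culture, as the labels require. It had 1419, 1393 and 1382 counts in siNC and 130, 96 and 109 in siTRIM28, a log2 fold change of -3.54 (edgeR, standard error, SE, 0.0723, adjusted p = 1.03e-10). Total counts ran from 12989362 to 13942383 in siNC and from 11712623 to 14018052 in siTRIM28. siNC replicates 1 and 2 were much closer to each other than to replicate 3 (chi-square per degree of freedom of 1.08 against 4.44 and 4.50), and siTRIM28 replicates 2 and 3 were closer to each other than to replicate 1 (1.24 against 6.96 and 6.29). Both close pairs still differed slightly beyond sampling noise and were kept as separate samples. With this many genes a very small excess is detected, so it does not show that the pairs are independent cultures. With the close pairs summed, 2967 genes were higher and 2968 lower in all, against 3944 and 3779 in the main fit. Of the sensing genes 4 were then called higher. Among 14 urothelial and epithelial markers 6 had enough counts to test and 5 of them were higher in siTRIM28 (21.3% of all genes were), among them VIM, which is also a mesenchymal marker, and TP63 and UPK1A, which entered the test only with the counts of siTRIM28. UPK1B was at 0. Their summed level was 1281 to 1310 CPM in siNC and 1541 to 1637 CPM in siTRIM28, most of it VIM. The keratins KRT8 (means of 103 CPM in siNC and 114 CPM in siTRIM28) and KRT18 (85.8 and 90.9 CPM) were well expressed. KRT7 was at 2.83 and 4.18 CPM, and KRT5, CDH1, EPCAM and GATA3 were near 0. The epithelial part of the label is thus marked by KRT8 and KRT18 but not by KRT5, CDH1, EPCAM or GATA3. Of 10 leukocyte and endothelial markers only CD68 had enough counts, CD3E was at 0, and the summed level was 345.5 to 350.0 CPM against 337.7 to 361.4 CPM. Nearly all of this sum was CD68 (means of 346.5 CPM in siNC and 350.0 CPM in siTRIM28).

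RIGI (ENSG00000107201, chromosome 9, 32455302 to 32526348, minus strand, GRCh38), the sensor of short RNA duplexes with triphosphate ends, moved most. It had 280, 322 and 288 counts in siNC replicates 1, 2 and 3, and 974, 886 and 887 in siTRIM28 replicates 1, 2 and 3. In counts scaled by TMM to a common library size (CPM) this was 20.1, 23.2 and 22.5 in siNC, against 69.3, 74.6 and 74.7 in siTRIM28. The lowest siTRIM28 culture lay far above the highest siNC culture, and replicates differed little within either group. The means were 21.9 ± 1.62 and 72.9 ± 3.05 CPM (SD, n = 3 each), a 3.32-fold rise. The log2 fold change was 1.73 (SE 0.0706, 95% interval 1.58 to 1.89, adjusted p = 1.24e-08, edgeR's quasi-likelihood test), the rank 113 from the top among 18474 genes. An exact two-sided permutation test gave p = 0.1, the smallest that 3 cultures against 3 allow, and the same holds for each gene below whose groups do not overlap.

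IFIH1 (ENSG00000115267, chromosome 2, 162267074 to 162318475, minus strand), the sensor of long RNA duplexes, rose by a smaller fold than RIGI. Its 62, 76 and 46 counts in siNC corresponded to 4.45, 5.47 and 3.60 CPM, and its 95, 79 and 80 counts in siTRIM28 to 6.76, 6.65 and 6.73 CPM. The siTRIM28 cultures were nearly level and all above siNC, where replicate 3 was lowest. The means were 4.51 ± 0.941 and 6.72 ± 0.0586 CPM, a log2 fold change of 0.57 (SE 0.159, 95% interval 0.22 to 0.92, adjusted p = 0.0131). The call held with each culture left out in turn, where the log2 fold change ran from 0.43 to 0.73.

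The change of RIGI against IFIH1 was also followed inside each culture as a ratio of CPM per kilobase of gene length (RPKM). Lengths were those of the count table, so the size of the ratio depends on them, while its change between groups does not. The ratio was 2.25, 2.11 and 3.12 in siNC, and 5.11, 5.59 and 5.53 in siTRIM28. The groups did not overlap, with means of 2.49 ± 0.547 and 5.41 ± 0.261 and an exact permutation p = 0.1. The lowest ratio in siTRIM28, 5.11, lay above the highest in siNC, 3.12.

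DHX58 (ENSG00000108771, chromosome 17), the regulator of the other RNA helicases, had 0, 0 and 1 counts in siNC and 1, 3 and 2 in siTRIM28. TLR3 (ENSG00000164342, chromosome 4), the endosomal receptor, had 1, 1 and 2 counts in siNC and 2, 0 and 0 in siTRIM28. No library exceeded 3 counts of either gene. A count of 0 allows up to 3 counts, here 0.214 to 0.253 CPM depending on the library and for counting error only, so no fold is given for these 2 genes and a difference was not detectable at this depth.

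CGAS (ENSG00000164430, chromosome 6, 73413515 to 73452297, minus strand), the cytosolic DNA sensor, had 280, 310 and 285 counts in siNC and 373, 348 and 280 in siTRIM28. These were 20.1, 22.3 and 22.3 CPM against 26.6, 29.3 and 23.6 CPM. All 3 siTRIM28 cultures lay above siNC, but replicate 3 only just. The means were 21.6 ± 1.27 and 26.5 ± 2.86 CPM, a log2 fold change of 0.30 (SE 0.0858, 95% interval 0.11 to 0.48, adjusted p = 0.0156). The call was lost without siNC replicate 1 (log2 fold change 0.24, adjusted p = 0.083) and without siTRIM28 replicate 2 (0.21, adjusted p = 0.061). In GENCODE v29, 180 exon bases of CGAS (4.3%) also lie in DDX43 on the other strand, which had 3250 counts in siNC and 3788 in siTRIM28 in all. Whether counting used strand is not stated, and the part of these reads in the result was not tested.

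MAVS (ENSG00000088888, chromosome 20, 3846799 to 3876123, plus strand), the adaptor of RIGI and IFIH1, varied little between replicates. It had 74.2, 72.6 and 72.9 CPM in siNC (1033, 1008 and 933 counts) and 87.7, 82.9 and 86.4 CPM in siTRIM28 (1232, 985 and 1027 counts). The groups were well separated for a difference of this size. The means were 73.2 ± 0.823 and 85.7 ± 2.48 CPM, a 1.17-fold rise with a log2 fold change of 0.23 (SE 0.0483, 95% interval 0.12 to 0.33, adjusted p = 0.00266), and the call held with each culture left out.

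STING1 (ENSG00000184584, chromosome 5, 139475533 to 139482935, minus strand), the adaptor of CGAS, was measured with few reads. Its 56, 55 and 47 counts in siNC were 4.02, 3.96 and 3.67 CPM, and its 89, 50 and 54 counts in siTRIM28 were 6.34, 4.21 and 4.55 CPM. The groups did not overlap, yet most of the difference came from siTRIM28 replicate 1. The log2 fold change was 0.38 with a 95% interval of -0.01 to 0.78 (adjusted p = 0.11), so STING1 was not called. Without siTRIM28 replicate 1 the log2 fold change was 0.17 (adjusted p = 0.467). The ratio of CGAS to STING1 in RPKM was 6.40 ± 0.615 in siNC and 6.26 ± 1.61 in siTRIM28 (exact permutation p = 0.9).

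TBK1 (ENSG00000183735, chromosome 12, 64452090 to 64502114, plus strand), the kinase on which both routes converge, had 617, 726 and 551 counts in siNC and 741, 689 and 649 in siTRIM28. These were 44.3, 52.3 and 43.1 CPM against 52.8, 58.0 and 54.6 CPM. siNC replicate 2 reached almost the level of siTRIM28 replicate 1, and the groups were separated by that small gap alone. The log2 fold change was 0.24 (SE 0.078, 95% interval 0.07 to 0.41, adjusted p = 0.0259). The call was lost without siNC replicate 1 (0.20, adjusted p = 0.126), siNC replicate 3 (0.19, adjusted p = 0.0975), siTRIM28 replicate 2 (0.20, adjusted p = 0.108) or siTRIM28 replicate 3 (0.24, adjusted p = 0.0696), and with the close library pairs summed (0.25, adjusted p = 0.0559). An antisense transcript, ENSG00000277895, covers 702 of its exon bases (14.7%) and went from 237 to 297 counts in all, and its part in the result was not tested.

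IRF3 (ENSG00000126456, chromosome 19, 49659569 to 49665780, minus strand), the transcription factor that TBK1 activates first, stayed within a narrow range. It had 22.9, 22.0 and 23.9 CPM in siNC (319, 305 and 306 counts) and 24.3, 23.9 and 24.8 CPM in siTRIM28 (342, 284 and 295 counts). The groups overlapped, and the log2 fold change was 0.09 with a 95% interval of -0.05 to 0.23 (adjusted p = 0.302). IRF3 shares 734 exon bases (19.3%) with BCL2L12 on the opposite strand, which had 1073 counts in siNC and 1441 in siTRIM28 in all.

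IRF7 (ENSG00000185507, chromosome 11, 612553 to 615938, minus strand), the interferon-inducible partner of IRF3, had 7, 3 and 2 counts in siNC and 12, 10 and 5 in siTRIM28. The sums were 12 and 27 counts, and siTRIM28 replicate 3 lay below siNC replicate 1. In the fit without a filter on low counts the log2 fold change was 1.24 with a 95% interval of 0.25 to 2.22 (adjusted p = 0.0754), so IRF7 was not called there either. That fit also gave RIGI an adjusted p of 1.20e-111, against 1.24e-08 with the filter (edgeR's quasi-likelihood test). The intervals of the unfiltered fit are thus likely too narrow for 3 cultures per group. Counting groups that do not overlap in CPM, 6 of the 7 tested genes were higher in siTRIM28 (all but IRF3), beside 26.3% of all genes tested.

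**Figure D1:**
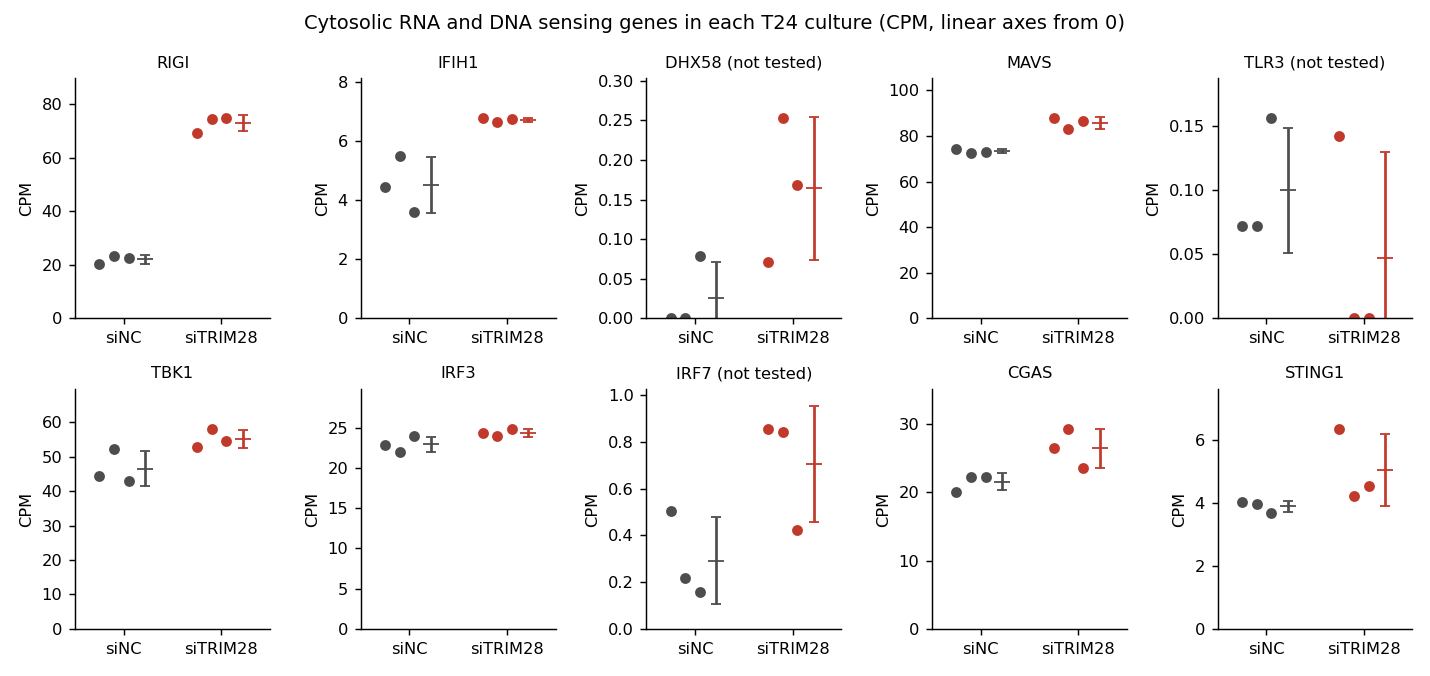
CPM (TMM-normalized, linear axes from 0) of the 10 sensing genes in each culture, with points for siNC (grey) and siTRIM28 (red) replicates 1 to 3 from left to right and mean ± SD beside them. RIGI shows the widest separation (21.9 against 72.9 CPM), and the values of DHX58, TLR3 and IRF7 all stay under 1 CPM.

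**Figure D2:**
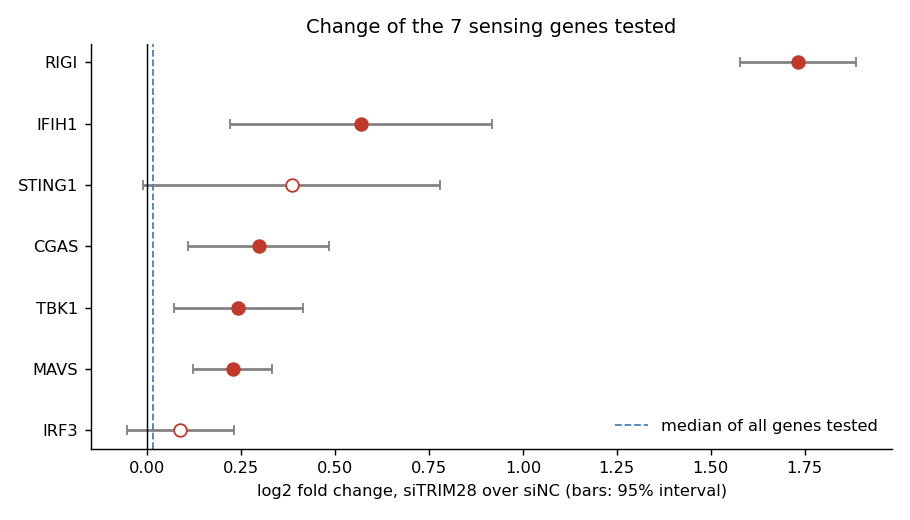
Log2 fold change of the 7 sensing genes tested, siTRIM28 over siNC, with 95% intervals. Filled points passed an adjusted p under 0.05, open points did not, and the dashed line is the median of all genes tested (0.02); RIGI stands at 1.73 and the other 6 lie between 0.09 and 0.57.

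The order of the 10 genes by level per length depended on the length used. With the lengths of the count table, siNC means were 6.22 ± 0.0699 RPKM for MAVS, 6.04 ± 0.257 for IRF3, 5.17 ± 0.304 for CGAS, 3.16 ± 0.340 for TBK1, 2.09 ± 0.155 for RIGI, 0.863 ± 0.180 for IFIH1 and 0.810 ± 0.0387 for STING1. MAVS and IRF3 did not differ beyond their spread, nor did IFIH1 and STING1. IRF7 followed at 0.112 ± 0.0709 RPKM, and TLR3 and DHX58 stood at 0.0133 and 0.00681 RPKM. In siTRIM28 RIGI moved from the fifth to the second place, at 6.95 ± 0.291 RPKM beside 7.28 ± 0.211 for MAVS, 6.42 ± 0.122 for IRF3 and 6.34 ± 0.686 for CGAS. With these lengths the ratio of RIGI to MAVS, sensor to adaptor, was 0.337 ± 0.0285 in siNC and 0.956 ± 0.0623 in siTRIM28, without overlap between cultures. The size of this ratio depends on the lengths used, and its change between groups does not.

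The count table gives RIGI a length of 10485 bases and TBK1 one of 14716 bases, where the union of exons in GENCODE v29 is 4353 and 4762 bases. With the v29 lengths, a choice made after the data were seen, TBK1 came first in siNC at 9.78 ± 1.05 RPKM and RIGI stood at 5.04 ± 0.373, close to CGAS at 5.19 ± 0.306. In siTRIM28 RIGI then came first at 16.7 ± 0.701 RPKM, ahead of TBK1 at 11.6 ± 0.559. RIGI was thus above MAVS, IRF3 and CGAS in siTRIM28 with the v29 lengths, while with the table's lengths its cultures (6.61 to 7.12 RPKM) overlapped those of MAVS (7.04 to 7.45 RPKM) and of CGAS (5.65 to 7.02 RPKM). Fold changes within a gene do not depend on its length.

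**Figure D3:**
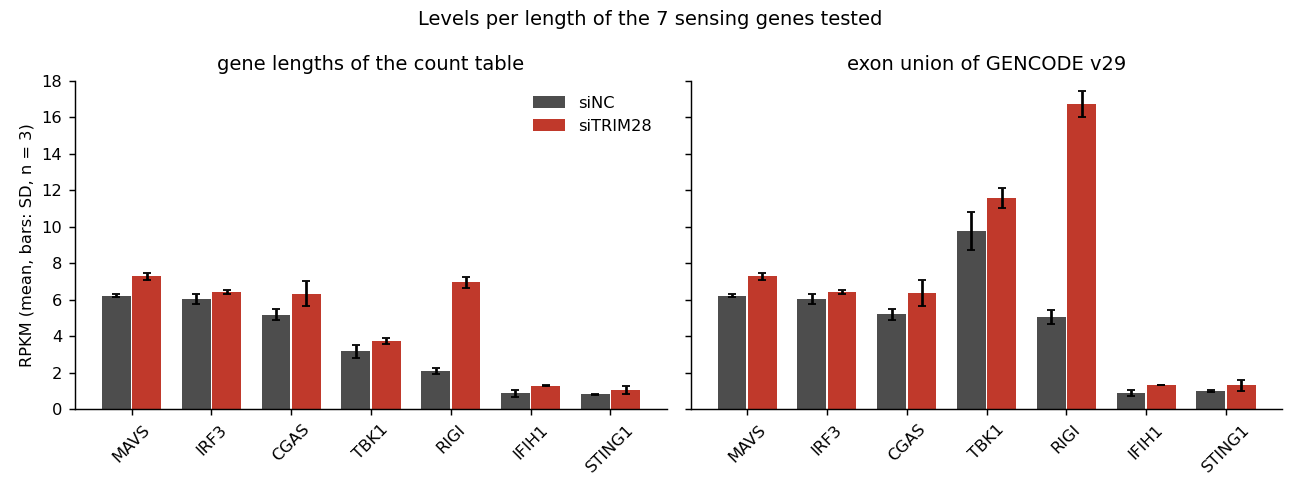
Level per length (RPKM, mean with SD bars, n = 3) of the 7 sensing genes tested in siNC (grey) and siTRIM28 (red), with gene lengths from the count table on the left and from the GENCODE v29 exon union on the right. In siNC TBK1 has rank 4 on the left and rank 1 on the right, while RIGI has rank 5 in both. RIGI in siTRIM28 is 6.95 RPKM on the left and 16.7 RPKM on the right.

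The promoters of both RNA helicases, RIGI and IFIH1, are shown as a description. Interferon-activated transcription factors are known to bind a response element whose core is a repeat of GAAA with a gap. RefSeq promoter windows (GRCh38.p14, 250 bases before to 50 after the annotated start, written 5′ to 3′ on the gene's strand) were searched on both strands for GAAA, any 2 bases, then GAAA, with overlapping matches kept. Windows were found for RIGI, IFIH1, MAVS, TLR3 and TBK1, and capitals mark the matches. The RIGI window is chr9:32526147-32526446 and that of IFIH1 is chr2:162318635-162318934, both on the minus strand.
RIGI: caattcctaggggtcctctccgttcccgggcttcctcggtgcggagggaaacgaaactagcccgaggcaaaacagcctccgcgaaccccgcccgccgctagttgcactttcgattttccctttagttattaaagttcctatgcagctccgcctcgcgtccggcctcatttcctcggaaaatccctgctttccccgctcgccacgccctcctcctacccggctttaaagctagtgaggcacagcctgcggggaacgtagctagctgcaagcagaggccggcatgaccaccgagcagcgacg
IFIH1: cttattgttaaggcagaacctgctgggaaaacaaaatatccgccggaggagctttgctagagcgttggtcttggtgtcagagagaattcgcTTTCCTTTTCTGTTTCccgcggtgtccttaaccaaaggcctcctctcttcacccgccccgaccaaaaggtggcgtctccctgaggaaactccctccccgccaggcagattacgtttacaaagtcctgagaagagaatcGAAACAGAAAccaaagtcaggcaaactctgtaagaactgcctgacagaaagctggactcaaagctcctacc
The IFIH1 window holds 3 matches, of which 1 reads GAAACAGAAA at position -21 from the start and the other 2 overlap each other on the opposite strand. With this gap of 2 bases the letters are not in the RIGI window, nor in those of MAVS and TBK1. The RIGI window does hold gaaacgaaa, with 1 base between the repeats. Such a gap was not searched for and is not marked, so the absence of a match covers the gap of 2 bases only. TLR3 has 1 match on the opposite strand, at chr4:186069152-186069161, inside the stretch agctttacTTTCACTTTCgagagtgc. So 2 of 5 windows of the sensing genes (40.0%) hold the letters, beside 1255 of 35116 windows (3.57%) overall. The windows of IFIT1 and DDX60, interferon-inducible genes described further on, hold 2 matches each. IFIH1 had the smaller rise of the 2 helicases, and TLR3 stayed at or under 2 counts in each library. Any part of these letters in the changes was not tested, and DHX58, IRF3, IRF7, CGAS and STING1 had no window.

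The other genes of these pathways were taken from 6 lists with 89 genes in all. Of the 69 with enough counts, 24 were higher (21.3% of all genes tested were), 12 were lower (20.5% of all genes) and 33 were not called, with a median log2 fold change of 0.07. A log2 fold change of at least 0.58 was passed by 12 upwards, beside 9.51% of all genes. One of -0.58 or less was passed by 7 downwards, beside 7.51%. Both upward counts include OASL and CCL5, described further on, which entered the test through siTRIM28 alone. The filter thus favoured an upward call for these genes, and the upward counts are a description only. With 10 counts required in every library, 22 of the other pathway genes were called higher.

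Among 17 other RNA sensors and cofactors 13 were tested, 6 rose and 2 fell, beside 21.3% higher and 20.5% lower among all genes, with a median of 0.17. OASL, a partner that enhances RIGI signalling, is one of the 6 but entered the test through siTRIM28 alone, with 6, 3 and 6 counts in siNC and 50, 37 and 44 in siTRIM28, so its values are given as a description. It had too few counts to be tested without any 1 siTRIM28 replicate or with 10 counts required in every library. DDX60, a helicase described as a cofactor of RIGI, rose from 8.13 ± 0.387 to 42.0 ± 1.15 CPM (2.37, adjusted p = 1.04e-09). ZC3HAV1, the zinc finger protein that binds CpG-rich viral RNA, rose from 35.8 ± 1.72 to 60.6 ± 1.55 CPM (0.76, adjusted p = 1.80e-06). RNF135, a ubiquitin ligase that activates RIGI, fell from 4.94 ± 0.528 to 3.21 ± 0.521 CPM (-0.62, adjusted p = 0.012). RIGI thus rose while RNF135 fell, though the call of RNF135 was lost at a threshold of 0.01. TRIM25 (-0.05, adjusted p = 0.524) and MEX3C (0.07, adjusted p = 0.475), ubiquitin ligases of the same list, were not called.

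Of 17 DNA sensors, cofactors and nucleases 15 were tested, 3 rose and 3 fell, with a median of -0.05, and 3 of 15 each way is close to the 21.3% and 20.5% of all genes. The number lower was 5 without siTRIM28 replicate 1, and 1 with DESeq2 and with the close library pairs summed. ZCCHC3, a cofactor of CGAS, rose from 26.5 ± 1.29 to 53.7 ± 8.15 CPM (1.02 on the log2 scale, adjusted p = 7.58e-06). TREX1, the nuclease that degrades cytosolic DNA, rose from 1.38 ± 0.170 to 3.14 ± 0.686 CPM (1.17, adjusted p = 0.00191). All of its exon bases in v29 lie within exons of ATRIP on the same strand, so reads of the pair cannot be told apart with certainty.

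All 18 adaptors and kinases between the sensors and the IRFs were tested, 4 rose and 4 fell, with a median of 0.03, and 4 of 18 each way is close to the 21.3% and 20.5% of all genes. None of the rises reached 0.58. MYD88, the adaptor of most Toll-like receptors though not of TLR3, fell from 3.33 ± 0.483 to 1.53 ± 0.0891 CPM (-1.11 on the log2 scale, adjusted p = 0.00101). RIPK1, a kinase shared by death receptor and TLR3 signalling, fell from 35.2 ± 1.17 to 19.6 ± 0.599 CPM (-0.84, adjusted p = 1.19e-06). CHUK, which encodes an IκB kinase, fell from 27.9 ± 1.85 to 18.1 ± 1.59 CPM (-0.62, adjusted p = 8.55e-05). MAVS and TBK1, the members of the same tier, rose by 0.23 and 0.24 on the log2 scale.

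Of 15 negative regulators 14 were tested, 4 rose and 3 fell, with a median of 0.06, near the 21.3% and 20.5% of all genes. NLRX1, a mitochondrial protein reported to restrain MAVS, fell from 4.67 ± 0.613 to 1.57 ± 0.399 CPM (-1.57 on the log2 scale, adjusted p = 1.10e-04). ATG5, the autophagy factor reported to bind RIGI and MAVS, fell from 42.6 ± 0.344 to 24.9 ± 1.89 CPM (-0.77, adjusted p = 3.71e-06). TKFC, a kinase reported to inhibit IFIH1, fell from 12.7 ± 0.663 to 7.96 ± 1.04 CPM (-0.67, adjusted p = 4.12e-04), and shares exon bases with DDB1 and CYB561A3 on the other strand. NLRC5 rose from 4.55 ± 0.755 to 7.43 ± 1.11 CPM (0.71, adjusted p = 0.0045), and is also known as the activator of MHC class I genes.

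Of the 7 other interferon regulatory factors 4 were tested, 2 rose (21.3% of all genes did) and the other 2 were not called, with a median of 0.28. IRF5 rose from 0.914 ± 0.0884 to 1.66 ± 0.329 CPM on 37 and 62 counts (log2 fold change 0.84, adjusted p = 0.0245). Its call was lost with DESeq2 (adjusted p = 0.119) and without siNC replicate 1 (0.80, adjusted p = 0.0771), siNC replicate 2 (0.80, adjusted p = 0.0724), siTRIM28 replicate 2 (0.75, adjusted p = 0.0773) or siTRIM28 replicate 3 (0.75, adjusted p = 0.079). It was also lost with the close library pairs summed (0.82, adjusted p = 0.0794) and at a threshold of 0.01.

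The list of genes downstream of IRF3 and IRF7 held 15 interferon ligands and early targets. IFNB1, the interferon gene that IRF3 switches on first, had 0 counts in all 6 libraries, which allows up to 3 counts or 0.214 to 0.253 CPM in each. The chemokine targets CXCL11 and CXCL10 were as low, with 0 counts in all libraries and a single count in siTRIM28 replicate 3. Of the 15, 5 had enough counts and were higher (21.3% of all genes were), and 1 of these, CCL5, entered the test through siTRIM28 alone. IFIT3, an interferon-induced protein that IRF3 can also induce directly, rose from 3.47 ± 0.488 to 68.3 ± 3.89 CPM (4.29 on the log2 scale, adjusted p = 1.21e-10). IFIT2 rose from 3.39 ± 0.384 to 65.8 ± 6.10 CPM (4.27, adjusted p = 2.64e-10), and IFIT1, which binds foreign RNA ends, from 5.04 ± 0.458 to 53.0 ± 2.95 CPM (3.39, adjusted p = 2.94e-10). ISG15, a ubiquitin-like protein and the remaining gene called, was named after its values were seen and rose from 5.87 ± 0.802 to 15.0 ± 2.98 CPM (1.36, adjusted p = 2.57e-05). CCL5, a chemokine gene, had 3, 1 and 2 counts in siNC and 25, 19 and 17 in siTRIM28, given as a description, and could not be tested without any 1 siTRIM28 replicate or with 10 counts required in every library. The log2 fold change of RIGI, 1.73, lay between those of ISG15 and IFIT1.

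**Figure D4:**
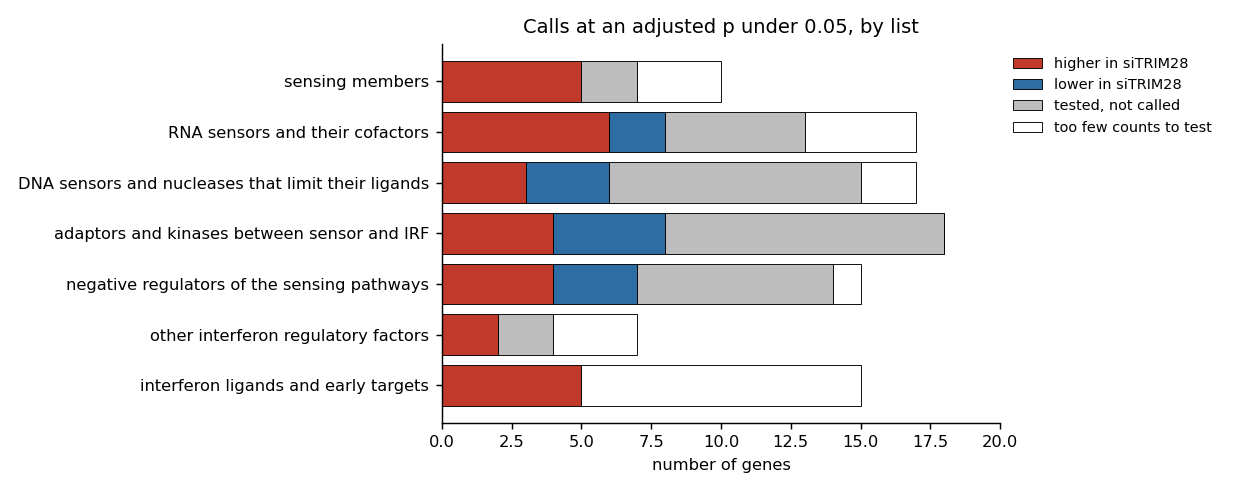
Number of genes (x axis) in the 10 sensing genes and in each of 6 lists of other pathway genes that were higher (red), lower (blue), tested but not called (grey) or too low to test (white) at an adjusted p under 0.05. The sensing genes show 5 higher and 0 lower of 7 tested, while adaptors and kinases show 4 and 4 of 18.

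An siRNA can also lower transcripts that pair with its seed. Of 12357 tested genes with a 3′ UTR in GENCODE v29, 16.6% hold a match to the seed of the study's siTRIM28-1 and 19.5% to that of siTRIM28-2. Among the sensing genes with a 3′ UTR only MAVS holds a match, 1 to each, and MAVS was higher in siTRIM28. Of the 12 other pathway genes called lower, 3 hold a match to the siTRIM28-2 seed (RIPK1, TKFC and G3BP1, the last named after its values were seen) and 0 to that of siTRIM28-1. The part of seed pairing in these falls was not tested.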

How the data were processed

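RNA-seq libraries of poly(A) RNA from 6 T24 cultures were made with a stranded kit. The table deposited by the authors holds unnormalized read counts for 78932 genes on GRCh38, with 1 gene length per gene. The submitters' processing notes name fastp 0.23.1, STAR 2.7.6a and featureCounts. The annotation release, the use of strand in counting and the treatment of duplicates are not given in the sources used here. The authors also deposited a table of RPKM values for their differentially expressed genes, which was not used.

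A gene entered the test if 3 or more libraries held 10 or more counts of it (18474 genes), and the test was that of edgeR 4.0.16 in R 4.3.3: TMM scaling, quasi-likelihood F test, condition as the only term, Benjamini-Hochberg adjustment over all genes tested, threshold 0.05. Standard errors were taken from the estimate and its F statistic. CPM and RPKM use TMM-scaled library sizes, and RPKM the table's gene length. The code was tested on simulated data. Totals of 11712623 to 14018052 counts limit precision for genes at a few CPM, where counting noise dominates, and intervals and floors at 3 counts cover no other error than the spread or counting they come from. Exact permutation tests were two-sided on log2 CPM (prior count 2), or on the log2 of the ratio.

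The 10 genes, the lists and the alternatives were chosen with earlier results of these data known. From the 6 lists, the text names IFNB1 and the called genes whose log2 fold change was 0.58 or more in size, up to 4 per list and direction. CXCL10, CXCL11, ISG15, G3BP1, TRIM25 and MEX3C were named outside this rule, with their values known. Alternatives were scaling by RLE, by total count or by upper quartile, DESeq2 1.42.0, limma-voom (limma 3.58.1), other count filters, a replicate block, close pairs summed, a threshold of 0.01 and each library left out. Exon overlaps came from GENCODE v29 and promoters from RefSeq, which gave windows for 5 of the 10 genes (not DHX58, IRF3, IRF7, CGAS or STING1). The longest 3′ UTR per gene was searched for seed matches. Figures were made with Python 3.11.15 and matplotlib 3.10.9.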

Additional observations from a re-analysis of the deposited data

How the results depend on the processing

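TRIM28, the 7 sensing genes tested and the other tested pathway genes named, TRIM25 and MEX3C aside, kept their direction under each of 16 alternatives that could test them. OASL and CCL5 could be tested in 12 of the 16. The ratios between genes, TRIM25, MEX3C, DHX58, TLR3, IRF7 and IFNB1 were not part of this comparison. The number of sensing genes called higher, 5, fell to 2 (RIGI and MAVS) at a threshold of 0.01. It was 3 to 5 when 1 library was left out, with 3 without siNC replicate 1 and without siTRIM28 replicate 2. RIGI and MAVS were called under all 16, with log2 fold changes of 1.66 to 1.77 and 0.21 to 0.26, and IFIH1 under all but the threshold of 0.01. CGAS lost its call in 3 and TBK1 in 6, those named with their values above and the threshold of 0.01. IRF3 and STING1 were called in none. The labels do not say whether replicate numbers pair the cultures. Same-numbered deviations over all genes were hardly correlated (0.0523, -0.0118 and 0.0374), which does not settle it, since counting noise also lowers such correlations. A replicate block gave 5 sensing genes higher, 0 lower, and 4030 genes higher and 3880 lower in all, so it changed no call among the sensing genes. Upper-quartile scaling moved the median of all genes to 0.05 and the share of calls that were higher from 51.1% to 56.6%, with no other call among the sensing genes. Levels per length of RIGI, IFIH1, TBK1 and STING1 moved by more than their SD with GENCODE v29 lengths in at least 1 group. Depth limits DHX58, TLR3 and IRF7, which had too few counts to enter the main test.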
